A study of Homo sapiens with 6 samples.

Results

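The 33 genes described here encode the enzymes that build purine, pyrimidine and deoxynucleotides, and they were chosen by symbol from the deposited expression table. All 33 were listed, among 12793 rows in all, and all 33 passed the filter on low values described below. RNA was sequenced from HCT15 cells, a long-used line of colorectal carcinoma, grown in RPMI-1640 with serum. In 3 libraries RBM15 had been targeted with CRISPR/Cas9, and these are called the libraries labelled knockout (sgRBM15 in the plots). The other 3 libraries carried a control guide, are labelled WT and are called the control libraries (sgctrl in the plots). RBM15 binds RNA and helps the m6A writer complex to place its mark, and the study asked how its loss changes the tumour cells, with metabolism and immunity as its interest. No label says whether a group was 1 clone, a pool or separate cultures, and the p-values given here therefore reflect library-to-library spread, possibly technical.

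Cells make purine nucleotides by assembling a ring, step by step, on phosphoribosyl pyrophosphate (PRPP), and the finished ring of inosine monophosphate (IMP) is then turned into AMP or GMP. The pyrimidine ring is built first and joined to PRPP afterwards, giving UMP, from which CTP is made. Ribonucleotide reductase turns ribonucleotides into the deoxynucleotides used for DNA, and salvage enzymes recover free bases and nucleosides. Growing tumour cells use both the synthetic and the salvage routes, and several of these enzymes are targets of established cancer drugs.

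The RBM15 transcript was more abundant where the labels give its knockout. Its level was 17.3, 18.5 and 18.03 FPKM in libraries labelled knockout 1 to 3, against 5.97, 5.89 and 5.51 FPKM in control libraries 1 to 3. FPKM are fragment counts scaled to transcript length and library size, so levels of different genes can be compared per length. On the log2 scale RBM15 differed by 1.48 (SE 0.049, limma adjusted p = 3.88e-06). With 3 libraries a side, the exact 2-sided permutation p was 0.1, its lowest possible value. The deposited mRNA values therefore do not show a loss of RBM15, and every direction given here rests on the labels. Of 10 markers of colon epithelium 7 were listed, with summed levels of 3481 to 3621 FPKM in the libraries labelled knockout and 3803 to 3896 FPKM in the control libraries. Among them VIL1 stood at 3.69 to 4.12 FPKM in the libraries labelled knockout and 16.8 to 17.2 FPKM in the control libraries. CDX2 stood at 9.28 to 9.78 FPKM and 20.8 to 21.1 FPKM in the same order. EPCAM, CDH1, KRT18 and KRT19 were also lower in the libraries labelled knockout. KRT8 went the other way, with 1339 to 1449 FPKM in the libraries labelled knockout and 1269 to 1307 FPKM in the control libraries. Of markers of other cell types, 1 of 5 for leukocytes (CD14) and 1 of 5 for fibroblasts (COL1A1) was listed, each below 6 FPKM, and 0 of 4 for endothelium. Log2 levels correlated across genes at 0.990 to 0.992 within groups and at 0.970 to 0.972 between groups, and no library stood apart. Depth per library is unknown, because the values left no steps of whole reads.

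Transcripts of nucleotide synthesis were mostly higher in the libraries labelled knockout, by small amounts. Of the 33 genes 19 rose, 3 fell and 11 did not pass the test. The 19 are 57.6% of the members, while 25.3% of all 11451 tested genes rose, and the 3 are 9.09%, while 29.2% of all tested genes fell. These calls come from limma on log2(FPKM + 1), at a Benjamini-Hochberg adjusted p of 0.05, with every tested gene in the adjustment. The median log2 difference was 0.17 over the 33 genes and -0.018 over all tested genes. The differences ran between -0.43 for GMPS and 0.49 for UMPS, so no member changed by 2-fold. In 25 of the 33 genes the values of the groups did not overlap, beside 63.0% of all tested genes. Counts by role, given below, rest on few genes each, so the share of a role is not a result by itself.

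**Figure D1:**
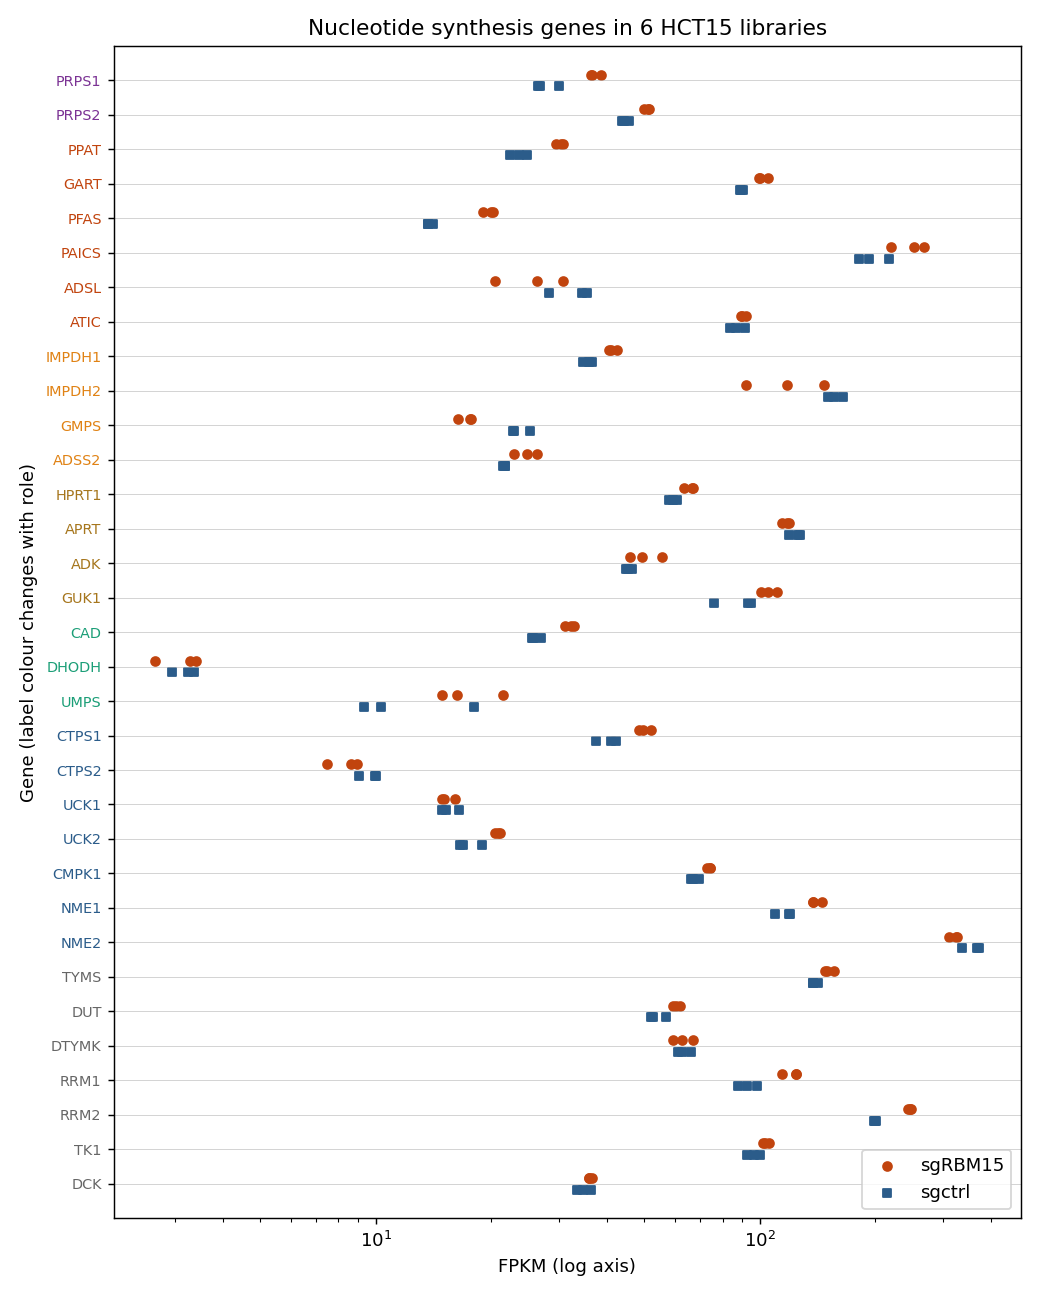
FPKM (log axis) of the 33 genes in each library, ordered from PRPP synthesis at the top to deoxynucleotides at the bottom. Circles are the 3 libraries labelled knockout and squares the 3 control libraries. Circles of RRM2 lie between 243 and 247 FPKM and its squares between 198 and 201 FPKM, while circles of IMPDH2 spread over 91.9 to 147 FPKM.

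**Figure D2:**
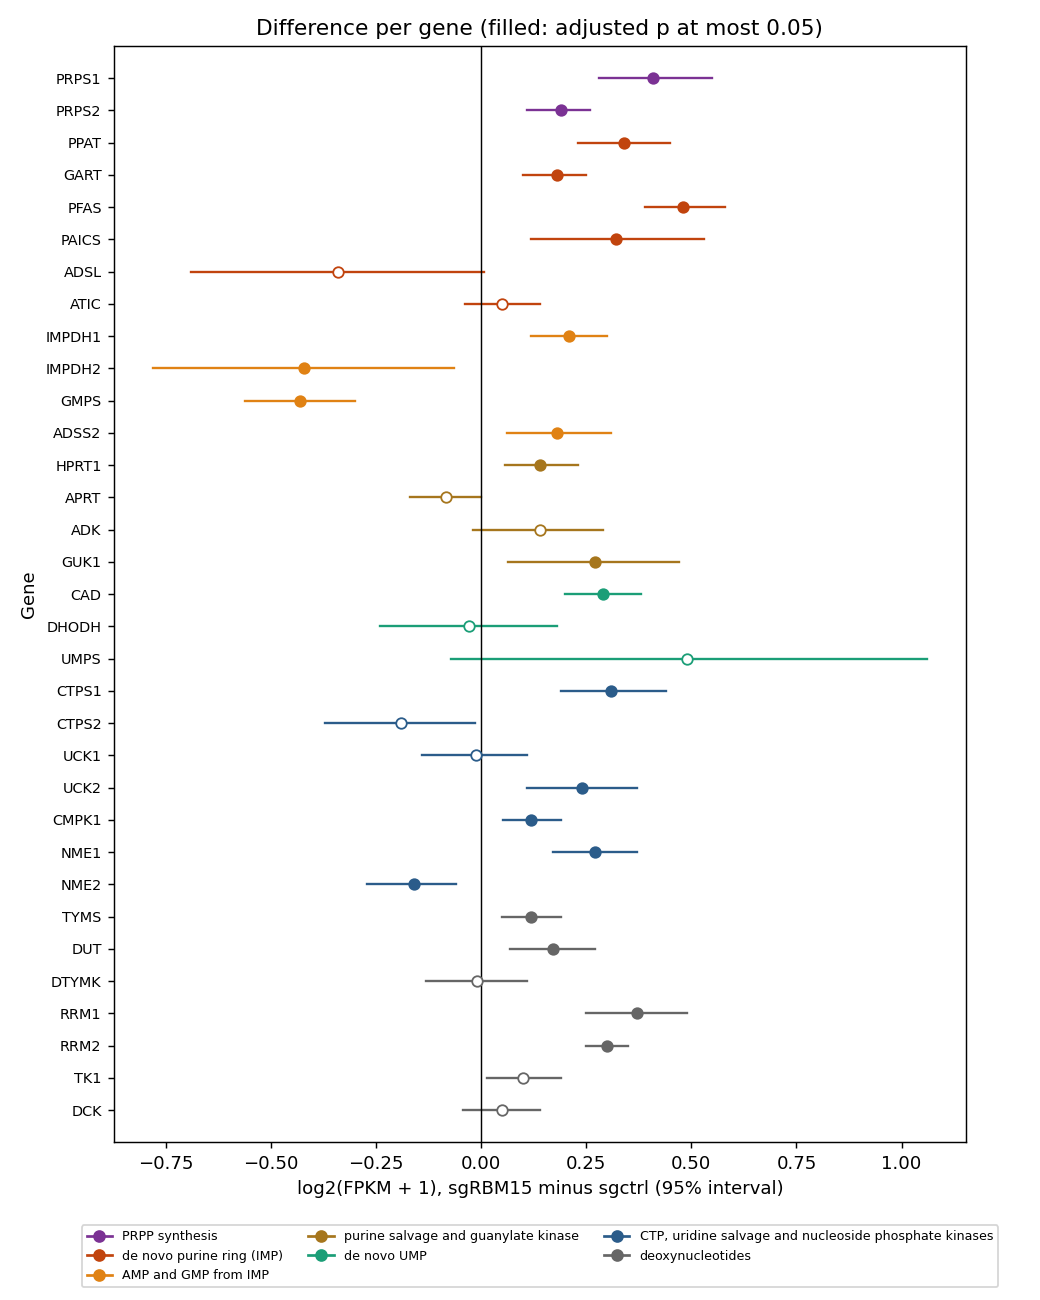
Log2 difference of each gene, libraries labelled knockout minus control libraries, with limma's 95% interval, coloured by role. Filled points passed an adjusted p of 0.05: 19 lie to the right of 0, and GMPS, IMPDH2 and NME2 lie to the left.

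The control libraries show how unequal the transcript supply of the route was to begin with. NME2, a kinase that passes phosphate between nucleotides, was the most abundant of the 33 in the control libraries at 359 ± 19.3 FPKM (SD, n = 3). RRM2 (199 ± 1.63 FPKM) and PAICS (197 ± 18.5 FPKM) came next and did not differ beyond their spread. DHODH, the mitochondrial enzyme of pyrimidine synthesis, was the least abundant at 3.19 ± 0.215 FPKM, and the next lowest was CTPS2 at 9.67 ± 0.526 FPKM.

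Both genes of PRPP synthesis rose in the libraries labelled knockout. PRPS1, a PRPP synthetase on the X chromosome, had 38.7, 36.6 and 36.4 FPKM in libraries labelled knockout 1 to 3, against 26.8, 26.4 and 30.1 FPKM in control libraries 1 to 3. Every library labelled knockout lay above every control library. PRPS1 rose by 0.41 on the log2 scale (SE 0.056, limma adjusted p = 0.000948). PRPS2, the second synthetase, had 51.4, 51.2 and 50.1 FPKM in the libraries labelled knockout and 45.7, 43.9 and 44.2 FPKM in the control libraries. Its log2 difference of 0.19 (SE 0.032, adjusted p = 0.00239) was the smaller of the pair. Summed, the synthetases reached 88.2 ± 1.8 FPKM in the libraries labelled knockout and 72.4 ± 2.04 FPKM in the control libraries.

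Of the 6 genes that build the purine ring, 4 rose (66.7%, beside 25.3% of all tested genes) and 2 did not pass. PPAT, which encodes the committed first enzyme, had 30.3, 29.5 and 30.7 FPKM in libraries labelled knockout 1 to 3, against 24.8, 23.6 and 22.4 FPKM in control libraries 1 to 3. These groups did not overlap, and PPAT rose by 0.34 on the log2 scale (SE 0.045, limma adjusted p = 0.000851). PFAS, which adds an amide nitrogen, had 19.0, 20.2 and 19.99 FPKM in the libraries labelled knockout and 14.1, 13.7 and 13.7 FPKM in the control libraries. At 0.48 (SE 0.04, adjusted p = 0.000122) it had the largest log2 difference among the members that passed. GART, whose protein carries out 3 steps of the ring, rose to 101 ± 2.76 FPKM in the libraries labelled knockout, against 89.5 ± 0.985 FPKM in the control libraries (log2 difference 0.18, adjusted p = 0.00257). Of the GART exons, 275 bp (3.5%) overlap SON on the opposite strand, and SON rose by 0.44 on the log2 scale.

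PAICS, the bifunctional enzyme that carboxylates the ring precursor and attaches aspartate, was more variable. It had 267, 220.2 and 252 FPKM in libraries labelled knockout 1 to 3, against 217, 181 and 192 FPKM in control libraries 1 to 3. The lowest library labelled knockout lay only just above the highest control library. PAICS rose by 0.32 on the log2 scale (SE 0.087, limma adjusted p = 0.0178), and the call was lost without library labelled knockout 1 (0.26, adjusted p = 0.0544), library labelled knockout 3 (0.30, 0.0551), control library 2 (0.26, 0.0561) or control library 3 (0.31, 0.0527). ATIC, which closes the ring, had 90.5 ± 1.56 FPKM in the libraries labelled knockout and 87.4 ± 3.76 FPKM in the control libraries, a log2 difference of 0.051 with a 95% interval of -0.039 to 0.14.

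PPAT and PAICS lie head to head on chromosome 4. In GENCODE 29 on GRCh38, PPAT occupies 56393362 to 56435615 on the minus strand and PAICS 56435741 to 56464579 on the plus strand, so their starts lie 126 bp apart. The window around the PPAT start therefore spans the space between a pair of genes that both rose, and it is shown for that reason, read 5′ to 3′ on the minus strand (RefSeq, GRCh38.p14, chr4:56435566-56435865). Capitals mark CACGTG, the E-box bound by MYC and related factors, with its first base at position -182 from the PPAT start. That is beyond the 126 bp between the starts, so by GENCODE 29 these letters lie within PAICS and not between the genes:
PPAT: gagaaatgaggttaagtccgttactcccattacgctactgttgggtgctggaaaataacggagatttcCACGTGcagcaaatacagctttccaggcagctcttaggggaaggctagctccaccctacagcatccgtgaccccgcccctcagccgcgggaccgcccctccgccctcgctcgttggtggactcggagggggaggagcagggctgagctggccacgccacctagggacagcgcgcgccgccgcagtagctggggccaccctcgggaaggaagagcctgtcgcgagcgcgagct
Windows of the same length were matched by symbol for 31 of the 33 genes (IMPDH2 and ADSL had none). They lie at RefSeq's starts, which can differ from those of GENCODE: the PAICS window, at 56410257 to 56410556 on chromosome 4, is not at the start given above, and it held none of the letters searched here. CACGTG stood in 5 of these 31 (16.1%), in 10.3% of the windows of all listed genes and in 7.3% of all 35116 windows. The 5 were those of PPAT and NME1, which rose, and of ATIC, DCK and DHODH, which did not pass. A match describes these letters only.

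ADSL went the other way in its listed row, without passing the test. The enzyme releases fumarate at a step of the purine ring and again in AMP synthesis. Its row had 30.7, 20.5 and 26.3 FPKM in libraries labelled knockout 1 to 3, against 35.4, 28.3 and 34.5 FPKM in control libraries 1 to 3, and the groups overlapped. The ADSL row differed by -0.34 on the log2 scale (SE 0.15, 95% interval -0.69 to 0.0081, limma adjusted p = 0.0891). It was -0.19 without library labelled knockout 2 (adjusted p = 0.209), and it was called lower without library labelled knockout 1 (-0.47, 0.029). In GENCODE 29 another listed gene without a symbol, ENSG00000284431, shares 1344 bp of exon with ADSL on the same strand, 18.9% of the ADSL exons. That row had 10.3, 19.5 and 15.9 FPKM in the libraries labelled knockout and 10.9, 16.6 and 12.4 FPKM in the control libraries, highest in each group where ADSL was lowest. Summed, the pair had 41.0, 40.0 and 42.2 FPKM in the libraries labelled knockout, against 46.3, 44.9 and 46.9 FPKM in the control libraries, with no overlap. With the sum in place of ADSL, a step chosen after the data were seen, the value became -0.16 on the log2 scale (SE 0.035, limma adjusted p = 0.00756). The FPKM of rows that share exons depend on how the authors' software divided the reads.

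**Figure D3:**
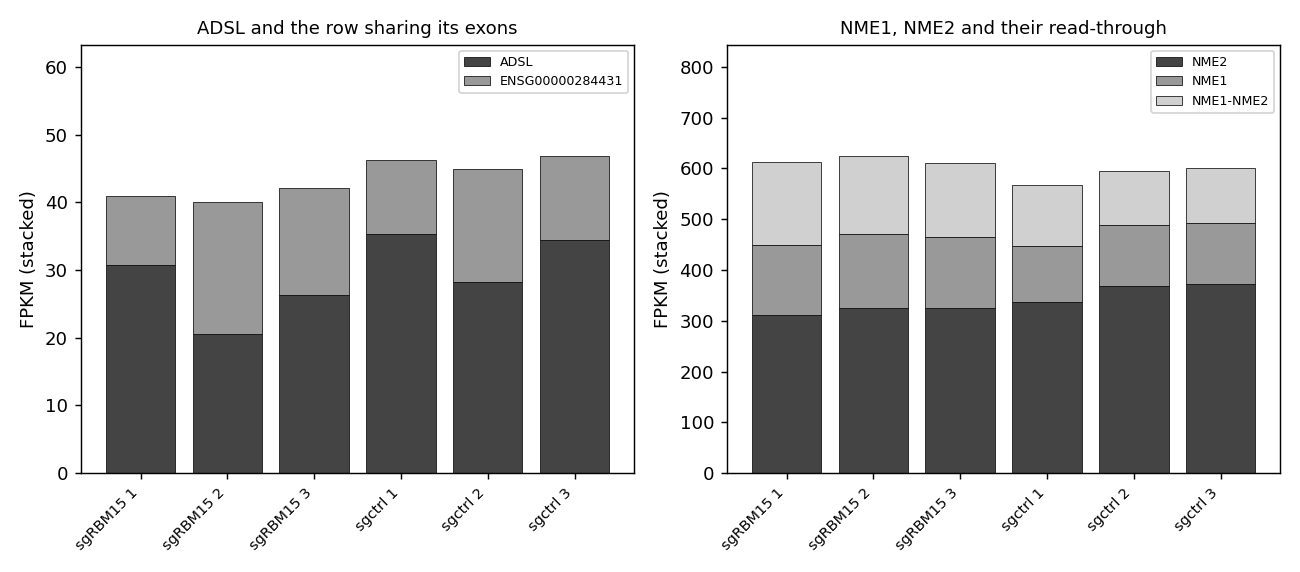
Stacked FPKM of rows that share exons, by library, with the libraries labelled knockout on the left of each panel. The ADSL bars vary within each group while their sum with ENSG00000284431 stays between 40.0 and 42.2 FPKM in the libraries labelled knockout and between 44.9 and 46.9 FPKM in the control libraries. NME2 is lower and NME1 and NME1-NME2 are higher in the libraries labelled knockout.

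At the branch from IMP the genes of the GMP arm split. GMPS, which makes GMP from XMP and lies on chromosome 3 at 155870536 to 155944026 (GENCODE 29, GRCh38), had 17.7, 16.4 and 17.6 FPKM in libraries labelled knockout 1 to 3, against 22.8, 25.2 and 22.9 FPKM in control libraries 1 to 3. All libraries labelled knockout lay below all control libraries, and GMPS fell by 0.43 on the log2 scale (SE 0.053, limma adjusted p = 0.000619). IMPDH2, the rate-limiting dehydrogenase before GMPS, on chromosome 3 at 49024325 to 49029408, had 147, 91.9 and 118 FPKM in libraries labelled knockout 1 to 3, against 151, 165 and 156 FPKM in control libraries 1 to 3. The groups did not overlap, but library labelled knockout 1 was close to the control libraries and library labelled knockout 2 far below them.

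IMPDH2 fell by 0.42 on the log2 scale (SE 0.15), with a limma adjusted p of 0.0495 that stood just inside the threshold. The call was lost without library labelled knockout 2 (-0.25, adjusted p = 0.0726), library labelled knockout 3 (-0.43, 0.104), control library 1 (-0.45, 0.0821), control library 2 (-0.39, 0.125) or control library 3 (-0.43, 0.0998), and the value was -0.59 (0.0053) without library labelled knockout 1. IMPDH1, the second dehydrogenase, had 40.4, 41.1 and 42.6 FPKM in the libraries labelled knockout and 35.9, 36.6 and 34.6 FPKM in the control libraries. It rose by 0.21 (SE 0.037, adjusted p = 0.00315). Because IMPDH2 was the more abundant of the pair, the sum of both was 188, 133 and 160.1 FPKM in the libraries labelled knockout, against 187, 202 and 190.2 FPKM in the control libraries, and these overlapped.

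On the AMP arm, ADSS2, which adds aspartate to IMP, had 26.3, 23.0 and 24.8 FPKM in libraries labelled knockout 1 to 3, against 21.7, 21.4 and 21.7 FPKM in control libraries 1 to 3. ADSS2 rose by 0.18 (SE 0.052, limma adjusted p = 0.0209). The call was lost without library labelled knockout 1 (0.14, adjusted p = 0.0561), library labelled knockout 3 (0.18, 0.0548), control library 1 (0.19, 0.0506), control library 2 (0.18, 0.058) or control library 3 (0.19, 0.0512).

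Among the purine salvage genes and the guanylate kinase, 2 of 4 rose (50%, beside 25.3% of all tested genes). HPRT1, which recovers hypoxanthine and guanine, had 67.2, 66.7 and 63.5 FPKM in libraries labelled knockout 1 to 3, against 58.1, 60.9 and 59.6 FPKM in control libraries 1 to 3, without overlap. It rose by 0.14 (SE 0.036, limma adjusted p = 0.0134). GUK1, which phosphorylates GMP, had 105, 111 and 101 FPKM in the libraries labelled knockout and 75.8, 94.7 and 93.3 FPKM in the control libraries. Control library 1 was low. GUK1 rose by 0.27 (SE 0.086, adjusted p = 0.0341), by 0.16 (adjusted p = 0.0255) without control library 1, and its call was lost without library labelled knockout 1 (0.27, 0.0739), 2 (0.23, 0.0984) or 3 (0.295, 0.0531). ADK, the adenosine kinase, had 49.5, 55.5 and 46.0 FPKM in the libraries labelled knockout and 45.5, 44.8 and 46.5 FPKM in the control libraries, which overlapped (log2 difference 0.14, 95% interval -0.019 to 0.29). The ADK difference was 0.065 without library labelled knockout 2 (adjusted p = 0.274), and it was called higher without library labelled knockout 3 (0.197, 0.0287). The log2 difference of APRT, which recovers adenine, was -0.084, with 117 ± 2.72 FPKM in the libraries labelled knockout and 124 ± 4.48 FPKM in the control libraries (adjusted p = 0.0863). APRT was called lower without control library 3 (-0.114, adjusted p = 0.0348) and higher with a GC and length trend removed (0.153, 0.0135).

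In UMP synthesis 1 of 3 genes passed, and it rose (33.3%, near the 25.3% of all tested genes). CAD, whose protein carries out the first 3 steps including the controlled one, had 31.1, 32.3 and 32.9 FPKM in libraries labelled knockout 1 to 3, against 26.9, 25.6 and 25.7 FPKM in control libraries 1 to 3. All libraries labelled knockout lay above all control libraries, and CAD rose by 0.29 (SE 0.038, limma adjusted p = 0.000817). DHODH had 3.41, 3.28 and 2.67 FPKM in the libraries labelled knockout and 3.25, 2.95 and 3.37 FPKM in the control libraries, with a log2 difference of -0.028 and a 95% interval of -0.24 to 0.18. UMPS, which completes UMP, had 14.9, 16.3 and 21.5 FPKM in the libraries labelled knockout and 10.3, 9.35 and 18.0 FPKM in the control libraries. Library 3 of each group was the highest, and the groups overlapped through control library 3. The log2 difference of UMPS was the largest of the 33 at 0.49, with the widest interval (-0.072 to 1.06, adjusted p = 0.121), and it was 0.76 (adjusted p = 0.0078) without control library 3.

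Of the 7 genes of CTP synthesis, uridine salvage and nucleotide kinases, 4 rose (57.1%) and 1 fell (14.3%). Of all tested genes 25.3% rose and 29.2% fell. CTPS1, the CTP synthase associated with dividing lymphocytes and tumour cells, had 52.2, 49.7 and 48.4 FPKM in libraries labelled knockout 1 to 3, against 42.2, 41.0 and 37.4 FPKM in control libraries 1 to 3. It rose by 0.31 (SE 0.053, limma adjusted p = 0.00245). CTPS2, the second synthase, had 8.64, 7.46 and 8.96 FPKM in the libraries labelled knockout and 10.0, 9.06 and 9.93 FPKM in the control libraries. CTPS2 values did not overlap but the gene did not pass (log2 difference -0.19, adjusted p = 0.0654). It was -0.121 without library labelled knockout 2 (adjusted p = 0.154), and it was called lower without library labelled knockout 3 (-0.239, 0.0473) or with a GC and length trend removed (-0.216, 0.0334). UCK2, a uridine and cytidine kinase, had 20.8, 21.1 and 20.4 FPKM in the libraries labelled knockout and 16.6, 18.9 and 16.9 FPKM in the control libraries, and it rose by 0.24 (SE 0.055, adjusted p = 0.00927). Of the UCK2 exons, 225 bp (3.2%) overlap TMCO1 on the opposite strand, and TMCO1 did not pass. The related kinase UCK1 had 15.4 ± 0.642 FPKM in the libraries labelled knockout and 15.6 ± 0.866 FPKM in the control libraries, with a 95% interval of -0.14 to 0.11 on the log2 scale. CMPK1, which phosphorylates UMP and CMP, rose to 73.7 ± 0.936 FPKM in the libraries labelled knockout, against 67.6 ± 1.53 FPKM in the control libraries (log2 difference 0.12, adjusted p = 0.0118).

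NME1 and NME2, neighbouring genes of the kinases that make the triphosphates, went apart. NME1 had 138, 145 and 138 FPKM in libraries labelled knockout 1 to 3, against 109.8, 119.8 and 119 FPKM in control libraries 1 to 3, and rose by 0.27 (SE 0.043, limma adjusted p = 0.00179). NME2 fell to 321 ± 8.56 FPKM in the libraries labelled knockout, against 359 ± 19.3 FPKM in the control libraries (log2 difference -0.16, adjusted p = 0.0169). The NME2 call was lost without library labelled knockout 1 (-0.14, adjusted p = 0.0553), control library 2 (-0.15, 0.057) or control library 3 (-0.14, 0.0556), and its sign turned to 0.022 with a GC and length trend removed. A read-through gene, NME1-NME2, shares 638 bp of exon with NME1 and 603 bp with NME2 and rose to 155 ± 8.91 FPKM in the libraries labelled knockout, against 112 ± 7 FPKM in the control libraries. The sum of these 3 rows was 616 ± 8.52 FPKM in the libraries labelled knockout and 588 ± 18.2 FPKM in the control libraries, a log2 difference of 0.068 (SE 0.029, limma adjusted p = 0.0902). How reads were divided among the 3 rows is uncertain.

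For deoxynucleotides, 4 of 7 genes rose (57.1%) and 0 fell, beside 25.3% and 29.2% of all tested genes. RRM1 and RRM2 encode the large and small subunits of ribonucleotide reductase, the enzyme that makes deoxynucleotides. RRM1 had 124, 114 and 124 FPKM in libraries labelled knockout 1 to 3, against 98.2, 87.8 and 92.8 FPKM in control libraries 1 to 3, and rose by 0.37 (SE 0.051, limma adjusted p = 0.000974). RRM2 had 246, 247 and 243 FPKM in the libraries labelled knockout and 201, 198 and 199 FPKM in the control libraries. Its log2 difference of 0.30 (SE 0.023, adjusted p = 8.41e-05) had the smallest error of the 33. The stress-induced small subunit RRM2B had 12.1 ± 0.717 FPKM in the libraries labelled knockout and 12.5 ± 0.083 FPKM in the control libraries and did not pass (adjusted p = 0.494).

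Around the start of both reductase genes stands CCAAT, the letters bound by NF-Y, and these windows are shown because the subunits rose together (RefSeq, GRCh38.p14, RRM1 at chr11:4094435-4094734 and RRM2 at chr2:10122489-10122788, both on the plus strand). Capitals mark each CCAAT on this strand:
RRM1: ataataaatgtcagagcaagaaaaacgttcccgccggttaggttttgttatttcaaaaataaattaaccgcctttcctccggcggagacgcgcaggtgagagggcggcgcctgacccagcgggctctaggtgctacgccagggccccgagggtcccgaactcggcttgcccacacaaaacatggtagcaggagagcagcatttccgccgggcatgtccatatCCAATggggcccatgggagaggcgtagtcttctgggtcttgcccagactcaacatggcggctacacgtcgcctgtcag
RRM2: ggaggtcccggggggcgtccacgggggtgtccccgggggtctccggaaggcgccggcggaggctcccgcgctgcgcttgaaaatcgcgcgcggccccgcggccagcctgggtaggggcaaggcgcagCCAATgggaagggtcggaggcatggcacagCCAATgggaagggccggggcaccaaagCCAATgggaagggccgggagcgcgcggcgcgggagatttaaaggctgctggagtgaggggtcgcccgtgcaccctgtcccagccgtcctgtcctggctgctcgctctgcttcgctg
RRM2 holds 3 copies, with first bases at -123, -93 and -66 from its RefSeq start (the GENCODE 29 gene begins upstream, at 10120698), and RRM1 holds 1 at -28. On either strand CCAAT stood in 10 of the 31 member windows (32.3%), beside 36.9% of those of all listed genes. Besides RRM1 and RRM2 these were CAD, GART, NME1, PRPS1 and UCK2, which rose, and ADK, DHODH and DTYMK, which did not pass. Here too a match describes the letters only. E2F letters (TTTCCCGC or TTTGGCGC, either strand) stood in 3 of 31 (9.7%), in PRPS2, TYMS and DCK, beside 3.8% of the windows of all listed genes.

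The other deoxynucleotide genes changed less. TYMS, thymidylate synthase and the target of 5-fluorouracil, had 156, 148 and 149.8 FPKM in libraries labelled knockout 1 to 3, against 138, 138 and 142 FPKM in control libraries 1 to 3. It rose by 0.12 (SE 0.03, limma adjusted p = 0.0126), and 967 bp of its exons, 39.1%, overlap ENOSF1 on the opposite strand. ENOSF1 fell to 15.8 ± 1.12 FPKM in the libraries labelled knockout, against 23.0 ± 1.13 FPKM in the control libraries, and the use of strand in counting is a step not given in the sources used here. DUT, which removes dUTP, had 59.6, 61.9 and 60.5 FPKM in the libraries labelled knockout and 52.7, 52.2 and 56.9 FPKM in the control libraries and rose by 0.17 (SE 0.041, adjusted p = 0.012). TK1, the thymidine kinase of S phase, had 106, 103 and 102 FPKM in the libraries labelled knockout and 100.1, 96.7 and 92.4 FPKM in the control libraries. TK1 values did not overlap and the gene stood just outside the threshold (log2 difference 0.10, adjusted p = 0.0516), which it passed without control library 1 (0.131, 0.0316). DTYMK, the thymidylate kinase, had a 95% interval of -0.13 to 0.11, and DCK, the deoxycytidine kinase, one of -0.042 to 0.14.

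**Figure D4:**
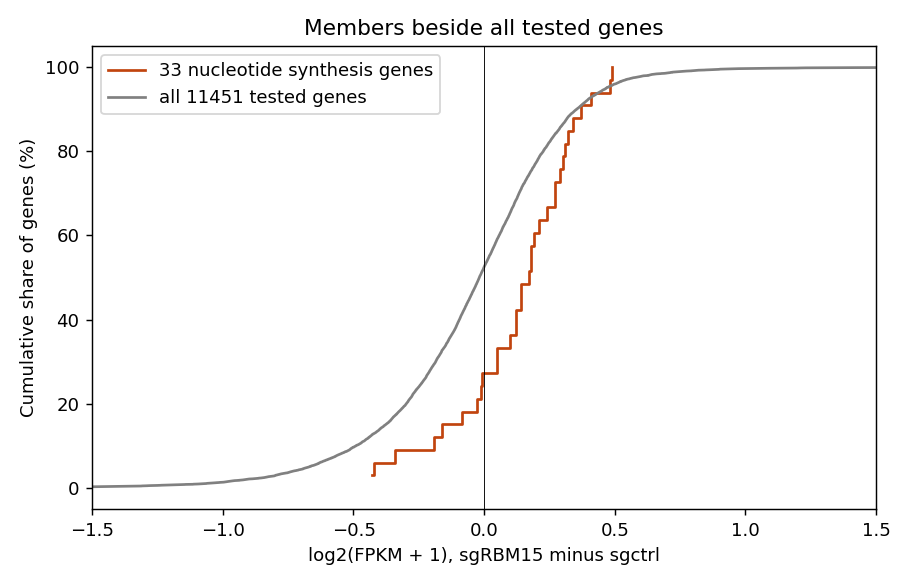
Cumulative share of genes (%) against the log2 difference, libraries labelled knockout minus control libraries, for the 33 members and for all 11451 tested genes. The curve of the members is shifted to the right at its middle, with medians of 0.17 and -0.018, and is narrower at both ends.

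Paired genes of a step were compared as 8 ratios, and in 7 of them the values of the groups did not overlap. Among single genes 63.0% of all tested genes did not overlap either, and no such share was computed for ratios of other pairs. With 3 libraries a side no exact p can fall below 0.1, so none passes 0.05. Each ratio was taken within a library as a log2 ratio of FPKM + 1 and compared by an exact 2-sided permutation test. The 95% intervals of the ratios do not come from that test. They were computed from the pooled spread with a t distribution, are not adjusted over the 8 ratios and serve as a description only. IMPDH2/IMPDH1 averaged 1.48 ± 0.35 in the libraries labelled knockout and 2.11 ± 0.058 in the control libraries, a difference of -0.63 with a 95% interval of -1.20 to -0.06. CTPS1/CTPS2 averaged 2.45 ± 0.14 in the libraries labelled knockout and 1.95 ± 0.13 in the control libraries, a difference of 0.50 (0.20 to 0.80). In both pairs the more abundant gene is on top of the ratio, which was lower in the libraries labelled knockout for IMPDH and higher for CTPS.

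PRPS1/PRPS2 differed by 0.23 (0.039 to 0.41), UCK2/UCK1 by 0.25 (0.12 to 0.39), NME1/NME2 by 0.43 (0.36 to 0.50), RRM2/RRM2B by 0.34 (0.20 to 0.49) and TK1/TK2 by 0.61 (0.23 to 0.98). For each of these 7 ratios the groups did not overlap, and the exact p was 0.1, or 0.114 adjusted over the 8 ratios. The NME1/NME2 ratio also depends on how reads were divided with the read-through row, which is uncertain. RRM2/RRM1, the balance of the reductase subunits, averaged 1.02 ± 0.073 in the libraries labelled knockout and 1.09 ± 0.068 in the control libraries and overlapped (difference -0.071, interval -0.23 to 0.089, exact p = 0.3).

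**Figure D5:**
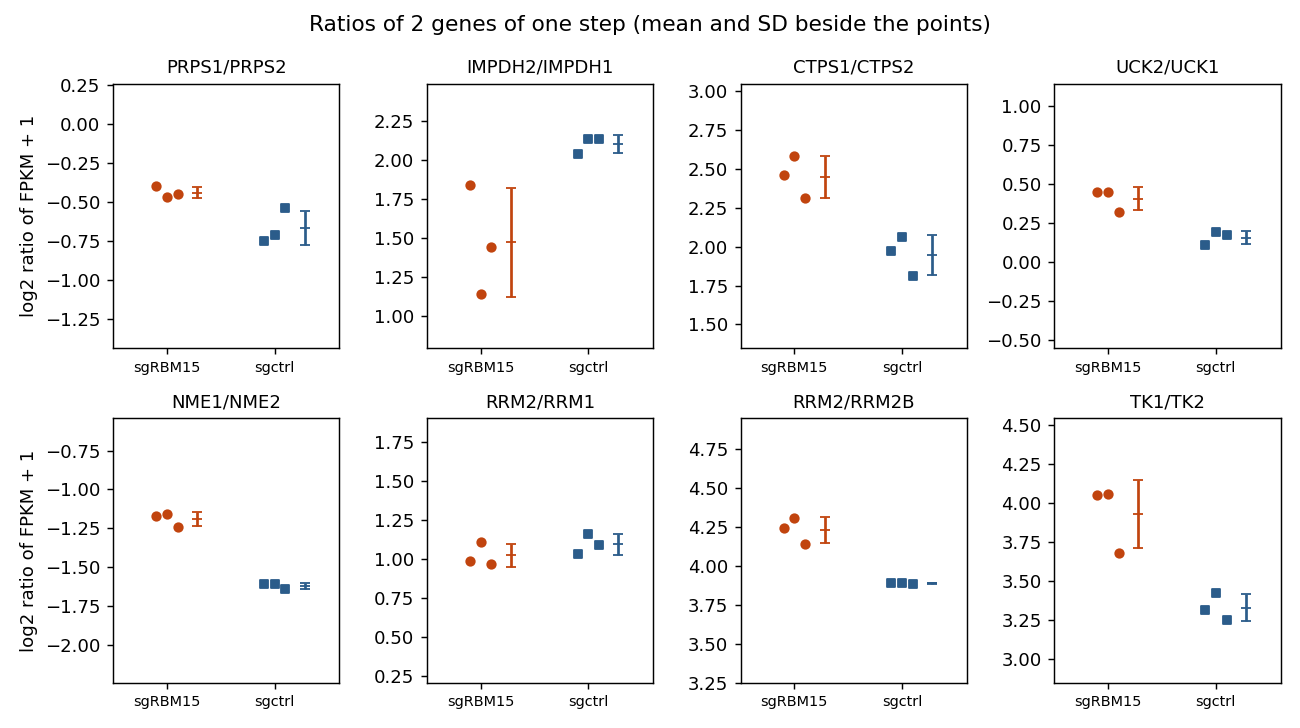
Log2 ratio of FPKM + 1 of 2 genes of a step in each library, with the mean and SD beside the points; every panel spans the same height. IMPDH2/IMPDH1 is lower in the libraries labelled knockout (circles, left) than in the controls (squares, right), RRM2/RRM1 overlaps, and the other 6 ratios are higher.

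Lists of genes around these enzymes are given beside all tested genes, of which 25.3% rose and 29.2% fell. Of 25 tested genes of nucleotide breakdown and interconversion, 5 rose (20%) and 6 fell (24%), shares near those of all genes (median log2 difference -0.05). The guanine deaminase GDA rose to 17.99 ± 1.98 FPKM in the libraries labelled knockout, against 11.0 ± 0.981 FPKM in the control libraries, while the nucleotidase NT5C fell to 29.6 ± 2.51 FPKM, against 43.3 ± 0.341 FPKM. ADSS1, the other adenylosuccinate synthase, fell to 0.645 ± 0.0729 FPKM in the libraries labelled knockout, against 1.54 ± 0.257 FPKM in the control libraries. AK9, an adenylate kinase family gene, fell by 0.69 on the log2 scale. It had 0.694 ± 0.365 FPKM in the libraries labelled knockout and 1.69 ± 0.114 FPKM in the control libraries. ADSS1 and AK9 reached the filter of 1 FPKM only through the control libraries, so their falls are weak parts of that count. Of 10 tested genes of pyrimidine breakdown and salvage, 0 rose and 6 fell (60%, median -0.29). Among them the cytidine deaminase CDA fell to 1.20 ± 0.396 FPKM in the libraries labelled knockout, against 2.75 ± 0.521 FPKM in the control libraries, and NME3, another diphosphate kinase, fell by 0.60. NME7 fell by 0.47 and DPYD, which breaks down uracil and thymine, by 0.42. DPYD had 0.712 ± 0.12 FPKM in the libraries labelled knockout and 1.29 ± 0.12 FPKM in the control libraries. It too reached the filter only through the control libraries, so its fall is a weak part of the count.

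Of 9 genes of deoxynucleotide control and mitochondrial supply, 2 rose (22.2%) and 3 fell (33.3%) in the libraries labelled knockout, again near the shares of all genes (median log2 difference -0.12). SAMHD1, which destroys deoxynucleoside triphosphates, rose to 15.5 ± 0.614 FPKM in the libraries labelled knockout, against 10.2 ± 0.35 FPKM in the control libraries, and DCTPP1 rose by 0.26. The mitochondrial thymidine kinase TK2 fell to 5.90 ± 0.961 FPKM in the libraries labelled knockout, against 8.73 ± 0.545 FPKM in the control libraries, and DNPH1, a nucleotide hydrolase, fell by 0.40.

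The folate genes supply carbon for the purine ring and for thymidylate, and 4 of 16 rose (25%) and 8 fell (50%, median log2 difference -0.14). MTHFD2, of the mitochondrial arm, fell to 123 ± 8.14 FPKM in the libraries labelled knockout, against 192 ± 16.1 FPKM in the control libraries. ALDH1L1, which burns formyl-folate, fell by 0.85 on the log2 scale, while SLC25A32, the mitochondrial folate carrier, rose by 0.45. Of 9 genes of ribose phosphate supply, 3 rose (33.3%) and 4 fell (44.4%, median -0.07). PGLS, of the oxidative pentose phosphate route, fell to 22.2 ± 0.597 FPKM in the libraries labelled knockout, against 45.3 ± 1.59 FPKM in the control libraries, and PGM2 rose by 0.43. TKT fell by 0.21 and RPE rose by 0.20. Of 6 nucleoside and nucleotide transporters, 2 rose (33.3%) and 3 fell (50%), and with so few genes neither share is a result: SLC25A36, a mitochondrial pyrimidine nucleotide carrier, fell by 0.97, SLC29A2 by 0.36 and SLC29A3 by 0.34, and SLC29A1 rose by 0.19.

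Transcripts of dividing cells were also mostly higher in the libraries labelled knockout. Of 34 DNA replication factors 26 rose (76.5%) and 2 fell (5.88%, median log2 difference 0.36), beside 25.3% and 29.2% of all tested genes. Of 20 mitosis genes 15 rose (75%) and 1 fell (5%, median 0.25). CLSPN rose to 13.0 ± 0.871 FPKM in the libraries labelled knockout, against 6.13 ± 0.497 FPKM in the control libraries. The helicase subunit MCM4 rose by 0.87, MCM10 by 0.77 and ORC1 by 0.75. BUB1B rose by 0.63, MKI67 by 0.58, CENPE by 0.51 and TOP2A by 0.46. In bulk RNA a larger share of cells in S phase and more RNA per cell cannot be told apart, and the part of the cell cycle in the nucleotide genes was not tested.

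Of 23 regulators known to act on growth or nucleotide genes, 10 rose (43.5%) and 5 fell (21.7%) in the libraries labelled knockout (median log2 difference 0.12). ATF4, a stress factor that drives amino acid synthesis genes, fell to 313 ± 13 FPKM in the libraries labelled knockout, against 601 ± 20.9 FPKM in the control libraries. NFYA, the DNA-binding partner subunit of NF-Y, rose by 0.65, E2F7 by 0.51 and E2F8 by 0.48. Outside the rule for named genes and chosen after their values were seen, MYC rose by 0.41, and NFYB and NFYC, the other NF-Y subunits, fell by 0.40 and 0.41.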

How the data were processed

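Per the labels' protocols, RNA was extracted with TRIzol, prepared with the VAHTS Universal V6 kit and sequenced as paired ends (NovaSeq). The build hg38 and the tools StringTie 2.0.4 and HISAT2 2.2.1 are named in the submitters' processing notes, with settings, annotation and strand not given in the sources used here. The authors deposited FPKM for 6 libraries in 1 table. Depth is unknown, so precision rests on 3 libraries per group.

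FPKM are not counts, so limma 3.58.1 (R 4.3.3) was fitted to log2(FPKM + 1) of the 11451 genes whose mean reached 1 FPKM, with a variance trend and no covariates. Differences on that scale understate changes of low genes. The fit was tested on simulated data, with the outcome not reported here. A gene that did not pass may still differ by a small amount. Positions came from GENCODE 29 (GRCh38), which matched 12220 rows. ADSS2 is named ADSS there. Plots were drawn with matplotlib 3.10.9, and tables were made in pandas 2.3.3 and numpy 2.4.6, with exact tests in scipy 1.17.1 (Python 3.11.15).

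Members, lists and tests were chosen with earlier results of these data known. The rule for named genes gave values in every library for PPAT, IMPDH2, CAD, CTPS1, RRM2, TYMS and up to 3 further members per role with the largest difference, and up to 4 called genes per other list, of which 1 is not reported here. Alternatives were a pseudocount of 0.1, other filters, scalings and variance models, a replicate block, removal of a GC and length trend and leaving out each library.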

Additional observations from a re-analysis of the deposited data

How the results depend on the processing

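Over 15 alternatives, the number of the 33 genes that rose stayed between 16 and 24 and the number that fell between 1 and 4. Of the 22 called genes, 17 kept their call in all 15. PAICS, IMPDH2, ADSS2, GUK1 and NME2 lost it in at least 1. IMPDH2 lost it in 12, among them a pseudocount of 0.1 (adjusted p = 0.0505), no filter (0.0542), the TPM scale (0.0555), median centring (0.0597), no variance trend (0.0664) and the GC and length trend removed (0.11), and GUK1 lost it also without a variance trend (0.0503). Of the 11 genes not called, 8 were called in at least 1 alternative, TK1 in 6.

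Signs turned for 5 genes. With the GC and length trend removed APRT had 0.153, UCK1 0.136, DTYMK 0.183 and NME2 0.022, and DTYMK (adjusted p = 0.00931) and APRT (0.0135) were then called higher. With median centring DHODH had 4.3e-05, UCK1 0.014 and DTYMK 0.019. On the TPM scale UCK1 had 0.010 and DTYMK 0.016, and under quantile normalization DHODH had 0.103 and UCK1 0.018. Leaving out 1 library moved DHODH between -0.079 and 0.053, UCK1 between -0.045 and 0.029 and DTYMK between -0.053 and 0.031. Without each library in turn the count of genes that fell was 1 to 3, with 1 without control library 2. With a filter at 5 FPKM, 3 genes of pyrimidine breakdown and salvage were called in place of 6, since fewer were tested. The causes were otherwise not tested.

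Across all genes, libraries of the same number did not deviate together: the correlations of their deviations from the group means were -0.035, -0.037 and 0.0. No label pairs them, and these correlations cannot show whether libraries of a number were prepared together. With a replicate block 21 of the 33 genes rose and 4 fell, and 5782 of all genes were called in place of 6245. IMPDH2 lost its call there (adjusted p = 0.0658), and ADSL (0.00837), CTPS2 (0.034), UMPS (0.0135) and TK1 (0.0426) gained one. Precision is limited by 3 libraries per group, and an unknown depth leaves low genes such as DHODH without a counting error.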
